A study of Mus musculus with 191 samples.

Results

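The genes described here are 36 mouse genes of fatty acid synthesis and of the synthesis of sebaceous lipids, the fats and waxes that sebaceous glands secrete onto skin and hair. They were chosen by name, as enzymes of the pathway with a few regulators and a receptor, and with earlier results of these data known. They were looked up by Ensembl identifier in normalized RNA-seq tables of 5 tissues. All 36 were listed in at least 1 table, among 21205 genes listed in any. Skin listed all 36, gut and lung 30 each, and bone marrow and liver 28 each. A mean value of at least 1 over a tissue's libraries was required for a test, and 35 members passed it in skin, 28 in gut, 28 in lung, 26 in bone marrow and 26 in liver. Elovl2 was the member under this limit in skin.

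Mice were given treatments meant to deplete neutrophils or to change their clock, and tissues were collected around the day, with times given as Zeitgeber time (ZT, in hours). Bone marrow, gut, liver and lung came from wild-type C57BL/6 mice given 3 µg per g body weight of anti-Ly6G antibody, against a neutrophil surface protein, or of control IgG, for 2 days. Each of these tissues had 18 libraries per antibody, from 3 mice at each of ZT 1, 5, 9, 13, 17 and 21. Ear skin came from 3 genotypes with 1 mouse per ZT and genotype. The 16 controls were labelled as wild-type C57BL/6 given diphtheria toxin (DT). The 16 iDTR mice (Mrp8CRE; iDTR) carry a DT receptor that the neutrophil-directed Mrp8CRE is meant to switch on, and were injected with 10 µg of DT per kg on 2 days. The 15 Bmal1-flox mice (Mrp8CRE; Bmal1-flox) are meant to lose Arntl, the gene for the clock activator BMAL1, in neutrophils. They were labelled as not given DT, had no strain label and lacked ZT 16. An unstated share of the mice lived in cabinets with a light cycle shifted by 12 h.

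Fatty acids are built in the cytosol from acetyl-CoA, which ATP citrate lyase and acetyl-CoA synthetase supply, through malonyl-CoA and fatty acid synthase. Elongases lengthen the chain, desaturases put in double bonds, reductases turn acyl-CoA into fatty alcohols, and acyltransferases join acyl chains to glycerol, sterols or alcohols. Sebaceous glands are rich in the enzymes of very long and monounsaturated chains and of wax esters, while the liver makes fatty acids mainly for triglyceride and follows feeding through the transcription factor SREBP1, the product of Srebf1.

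Several members are neighbours in the genome (GRCm38). The 4 stearoyl-CoA desaturase genes Scd1 to Scd4 lie within 204.6 kb at chr19:44203269-44407879. The wax gene Awat1, Awat2 and their relative Dgat2l6 lie within 176 kb at chrX:100402221-100578205. The front-end desaturases Fads1, Fads2 and Fads3 lie within 155 kb at chr19:10041569-10196877. RefSeq promoter entries matched 28 of the 36 members, and the 250 bases before the start site were searched on both strands for CCAAT, the box bound by the factor NF-Y, for CACGTG, the E-box of clock and SREBP factors, and for TCACNCCAC, a form of the sterol response element. CCAAT was in the window of 14 of the 28 members (50.0%) and of 37.5% of the 27025 genes with an entry. CACGTG was in 1 member (3.57%, against 6.86% of all genes), and TCACNCCAC was in 0 members (1.22% of all genes). A match describes letters only, and no binding was measured.

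The windows of 4 members that recur below are shown 5′ to 3′ on the gene's strand (RefSeq, GRCm38.p6), in lower case with CCAAT, its reverse complement ATTGG, and CACGTG in capitals. Fasn (chr11:120824548-120824797, minus strand) stands for the synthesis core and has 3 CCAAT matches, of which a pair overlap within a palindrome. Gpam (chr19:55127239-55127488, minus strand), which starts glycerolipid synthesis, has 1. Elovl5 (chr9:77917115-77917363, plus strand) was the single member with CACGTG and also has 2 CCAAT matches. Awat1 (chrX:100571997-100572246, plus strand) is a wax gene listed only in skin and has no match. None of the 4 windows overlaps the annotated body of its own gene in GENCODE M21.
Fasn: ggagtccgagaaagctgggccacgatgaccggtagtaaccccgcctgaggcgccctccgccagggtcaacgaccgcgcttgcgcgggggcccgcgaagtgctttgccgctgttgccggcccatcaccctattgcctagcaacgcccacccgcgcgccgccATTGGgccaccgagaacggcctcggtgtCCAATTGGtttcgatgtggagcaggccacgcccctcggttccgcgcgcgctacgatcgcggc
Gpam: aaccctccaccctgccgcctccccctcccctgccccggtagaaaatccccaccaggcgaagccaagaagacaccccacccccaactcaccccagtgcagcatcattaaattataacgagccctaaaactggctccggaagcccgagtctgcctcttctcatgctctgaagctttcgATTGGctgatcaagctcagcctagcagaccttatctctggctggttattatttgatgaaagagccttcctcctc
Elovl5: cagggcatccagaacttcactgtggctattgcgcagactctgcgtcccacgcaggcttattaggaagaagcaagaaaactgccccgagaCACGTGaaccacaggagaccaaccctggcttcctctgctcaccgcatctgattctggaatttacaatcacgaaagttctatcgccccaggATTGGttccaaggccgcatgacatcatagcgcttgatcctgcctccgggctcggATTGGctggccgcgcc
Awat1: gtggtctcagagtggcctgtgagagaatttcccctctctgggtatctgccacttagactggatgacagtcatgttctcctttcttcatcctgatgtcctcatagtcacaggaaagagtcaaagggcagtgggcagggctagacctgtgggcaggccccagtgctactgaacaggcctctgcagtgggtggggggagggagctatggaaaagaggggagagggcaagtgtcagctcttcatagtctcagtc

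Recovered expected counts per library (depth) ranged from 7683139 to 30885640, and 1 read was worth 0.0319 to 0.131 units of the deposited signal. The labels met several checks with mixed results. In bone marrow, Ly6g, the target of the antibody, averaged 104 with IgG and 118 with anti-Ly6G, so its RNA was not lower in treated mice. In skin, S100a8, a neutrophil and stressed-keratinocyte gene, was 0.83 to 12.6 in controls and 3.95 to 47.2 in iDTR. Gt(ROSA)26Sor, the locus into which the iDTR cassette is commonly placed, was 0.225 to 1.83 in controls, 0.242 to 1.53 in iDTR and 21.0 to 30.2 in Bmal1-flox, which puts the wild-type label of the controls in doubt. The Bmal1-flox library of ZT 4 held hepatocyte markers at a sum of 1439.5, against 0.731 to 7.63 in the other 14. In lung, the labelled ZT went against the clock genes. Arntl was highest at ZT 17 in both lung groups, while in gut and liver it was highest at ZT 1 or ZT 21. Bone marrow had its highest Arntl at ZT 21 with IgG but, like lung, at ZT 17 with anti-Ly6G. Dbp, another clock gene, was highest in lung at ZT 5 with IgG and at ZT 1 with anti-Ly6G. In bone marrow, gut and liver, Dbp was highest at ZT 9 with either antibody. Lung is therefore compared only by labelled antibody and over all its libraries. The antibody fit still holds the labelled ZT as a factor, so where those labels are wrong, differences by time stay in its spread.

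In control animals the members divided between a liver pattern and a skin pattern, with a few genes highest elsewhere. Levels are given as median signal per kb of exon, and the tables of the tissues were normalized separately, so an order across tissues is a description. By this measure 16 members were highest in liver and 14 in skin, with 3 highest in lung, 2 in gut and 1 in bone marrow. Scd1, the main stearoyl-CoA desaturase, reached 1905 per kb in liver and 1479.8 in skin, followed by 408 in lung, and was 16.2 in bone marrow and 15.8 in gut. Its relative Scd2 had the opposite order in part, with 292 per kb in gut, 185 in lung, 52.6 in skin, 21.1 in bone marrow and 1.24 in liver. Fasn, fatty acid synthase, was 74.1 in liver, 60.1 in skin, 51.0 in lung, 22.5 in gut and 6.89 in bone marrow. The liver side of the division included Thrsp, a lipogenic regulator, at 335 per kb, and Elovl2, an elongase of polyunsaturated chains, at 154. It also included Agpat2 and Gpam, early acyltransferases of glycerolipid synthesis, at 96.9 and 27.6.

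The skin pattern held genes of very long chains, hydroxylated chains and waxes. Elovl4, which makes the ultra long chains of the skin barrier, was at 461 per kb in control skin and at 0.242 or less in gut and lung, the other tables that listed it. Fa2h, the fatty acid 2-hydroxylase, was at 412 in skin and 35.4 in gut, the other table that listed it. Elovl6, the elongase of saturated chains, was at 183 in skin and 20.03 in liver. Far2, a fatty acyl-CoA reductase that makes fatty alcohol, was at 80.8 in skin and between 0.249 and 2.77 elsewhere, whereas its relative Far1 was highest in bone marrow at 27.6. Awat1 and Dgat2l6, acyltransferases of the wax ester family, were listed in skin alone, at 53.4 and 3.91. Reads of 50 bases do not place every read in one gene: 30.4% of the 50-base stretches of Acaca and 28.3% of those of Me1 also occur in another gene, mainly in Gm5182 and Gm7049, and 3.97 to 6.57% of those of the 4 Scd genes do.

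**Figure D1:**
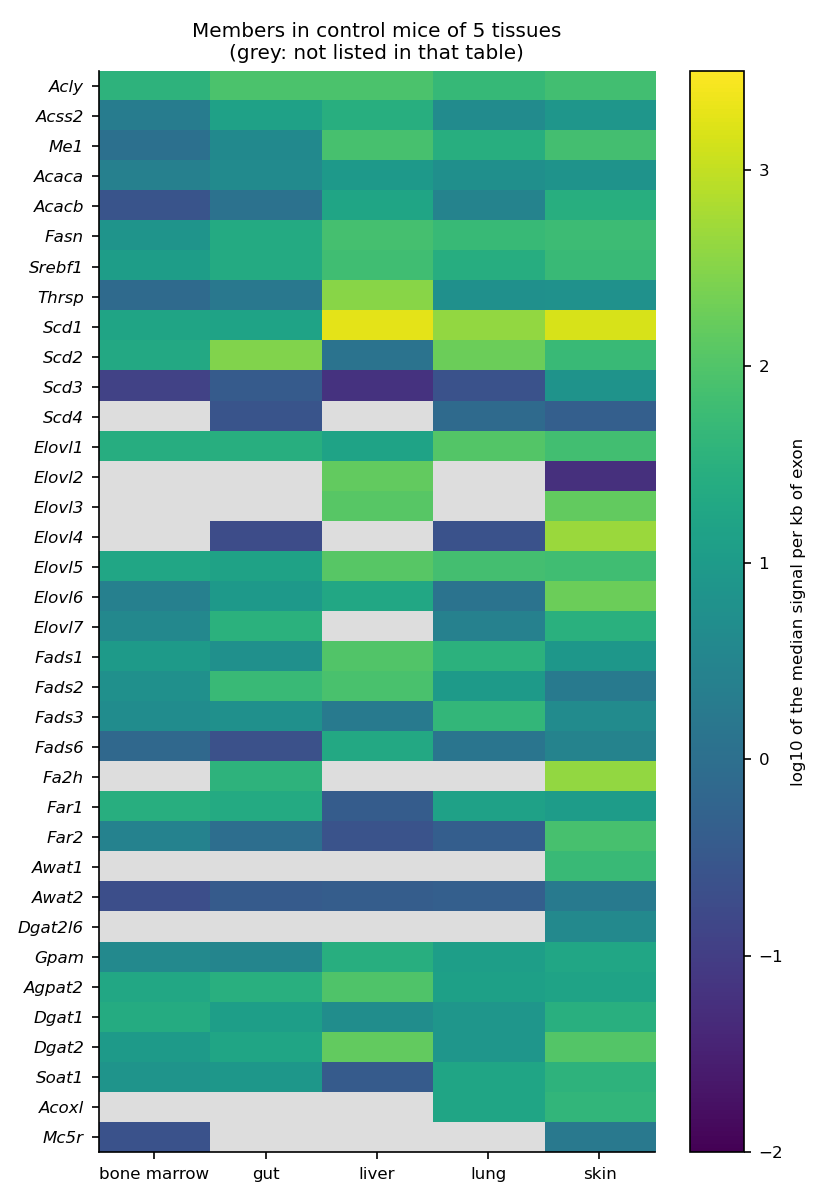
Heat map of the level of each of the 36 members (rows, by role) in the control group of each tissue (columns), as log10 of the median deposited signal per kb of exon, with grey where a table does not list the gene. Scd1 is high in liver, skin and lung, Thrsp and Elovl2 in liver, and Fa2h, Elovl4, Far2 and Awat1 in skin.

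The first skin comparison set the mice labelled iDTR against those labelled control, both given DT per the labels. In iDTR skin, 31 of the 35 tested members were lower than in control skin and 0 were higher, with a difference called where limma's adjusted p was under 0.05. The comparison called 32.4% of all 15946 genes lower, 30.6% higher and 63% in either direction. The median log2 difference of the members was -1.43, against -0.02 over all genes. Because the members were chosen with earlier results of these data known, shares of members set beside all genes are a description. For 23 of the 35 the highest iDTR value lay below the lowest control value, which held for 3.62% of all genes. The reverse held for 0 members and 4.62% of all genes, and 26 called members were lower at all 16 ZT. By the log2 difference of (value + 1), which shrinks falls of scarce genes, Fa2h, Elovl3, Acoxl, Far2 and Awat1 held the ranks 1, 2, 4, 6 and 9 among the falls of all genes. By group means, 11 members were left under 10% of their control mean (0.332% of all genes). Folds below are ratios of group means, and fewer cells of a type and less RNA per cell cannot be told apart in these bulk samples.

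Among desaturases and hydroxylase genes, Fa2h (chr8:111345135-111393824) had the largest fall of any gene tested by the log2 difference of (value + 1). Its values were 887 to 1632 (median 1239) in control skin and 7.13 to 43.1 (median 18.3) in iDTR skin. The mean was 67.5-fold lower (log2 difference -6.13 ± 0.15 SE, limma adjusted p = 9.15e-36), and the ranges were far apart. Scd1 (chr19:44394455-44407879) was 5361 to 9625 (median 7239) in controls and 237 to 875 (median 628) in iDTR. Its mean was 12.6-fold lower (log2 difference -3.73 ± 0.13 SE, limma adjusted p = 1.35e-29), again with no overlap. Scd3, a desaturase largely restricted to skin, was 13.4 to 40.5 (median 24.2) in controls and 0.431 to 1.69 (median 0.678) in iDTR, 32.9-fold lower (log2 difference -3.84 ± 0.12 SE, limma adjusted p = 2.42e-31). Scd2, the broadly expressed relative, was 233 to 360.0 (median 288) in controls and 146 to 348 (median 222) in iDTR, 1.23-fold lower with overlapping groups (limma adjusted p = 1.82e-04). Scd4 was near the detection limit, at 0.83 to 2.67 (median 1.78) in controls and 0.484 to 2.12 (median 1.24) in iDTR, and its call (limma adjusted p = 0.0212) was lost with quantile normalization (0.205) and without the mice of ZT 5 or of ZT 21. The front-end desaturases of polyunsaturated chains changed less: Fads6 was 2.76-fold, Fads2 1.72-fold and Fads1 1.47-fold lower. Fads3 was 13.8 to 24.4 (median 17.2) in controls and 9.76 to 24.7 (median 20.7) in iDTR, with no call (limma adjusted p = 0.672).

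The elongases divided in the same comparison. Elovl3, an elongase of saturated and monounsaturated very long chains known from sebaceous glands and brown fat, was 197 to 422 (median 293) in controls and 1.26 to 11.4 (median 5.13) in iDTR. Its mean was 61.9-fold lower (log2 difference -5.86 ± 0.17 SE, limma adjusted p = 2.90e-32), and no iDTR mouse reached the range of the controls. Elovl6 was 888 to 1466 (median 1175) in controls and 83.1 to 149.9 (median 98.0) in iDTR, 11.3-fold lower (log2 difference -3.50 ± 0.07 SE, limma adjusted p = 6.12e-38). Elovl5, which elongates polyunsaturated chains, was 146 to 286 (median 232) and 26.8 to 41.1 (median 33.3), 6.77-fold lower. Elovl4 was 1207 to 1804 (median 1396) and 221 to 469 (median 330.4), 4.28-fold lower. These 4 genes were lower in every iDTR library than in any control library. Elovl1 and Elovl7, elongases of saturated very long chains, had slightly higher values in iDTR. Elovl1 was 148 to 269 (median 188) in controls and 155 to 297 (median 220.5) in iDTR (log2 difference 0.17, limma adjusted p = 0.0582). Elovl7 was 102 to 187 (median 127) and 115 to 177 (median 146) (0.15, limma adjusted p = 0.06). Neither passed the test, but both passed it, as higher, in part of the refits without 1 mouse or 1 ZT (13 for Elovl1 and 11 for Elovl7).

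Genes of fatty alcohols and waxes showed the same split between relatives. Far2 was 508 to 770.3 (median 591) in controls and 5.88 to 29.99 (median 17.5) in iDTR. Its mean was 36.8-fold lower (log2 difference -5.23 ± 0.14 SE, limma adjusted p = 1.27e-34), with ranges far apart. Far1, which supplies fatty alcohol for ether lipids in many tissues, was 76.6 to 119 (median 89.7) and 81.5 to 104 (median 88.0), and was not called (log2 difference -0.05 ± 0.05 SE, limma adjusted p = 0.33). Awat1, whose promoter window is shown above, was 52.4 to 109.8 (median 74.3) in controls and 0.468 to 5.40 (median 2.07) in iDTR, 34.2-fold lower (log2 difference -4.66 ± 0.15 SE, limma adjusted p = 3.49e-31). Dgat2l6 was 13.8 to 41.3 (median 18.5) and 0.102 to 2.84 (median 0.859), 21.1-fold lower. Awat2, another wax alcohol acyltransferase, was 1.77 to 6.62 (median 3.74) and 0.272 to 1.58 (median 0.685), 4.94-fold lower. Except for Far1, no iDTR mouse of this group of genes overlapped a control. The gene Mc5r, a melanocortin receptor of sebaceous glands, was 4.50 to 9.28 (median 6.59) in controls and 0.0265 to 0.661 (median 0.331) in iDTR, 19.8-fold lower, with some iDTR libraries at the floor of the table. Acoxl, an acyl-CoA oxidase-like gene, was 92.1 to 179 (median 130.0) and 0.631 to 6.26 (median 2.37), 51.4-fold lower (log2 difference -5.34 ± 0.14 SE, limma adjusted p = 9.18e-34).

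The synthesis core and the triglyceride genes also fell, by smaller folds. All 8 core genes were called lower. Fasn (chr11:120805846-120824547) was 527 to 789.6 (median 657) in controls and 208 to 325 (median 264) in iDTR. It was 2.46-fold lower (log2 difference -1.30 ± 0.05 SE, limma adjusted p = 2.64e-26) without overlap. Srebf1 was 245 to 339 (median 302) and 160.1 to 245 (median 202), 1.47-fold lower (log2 difference -0.56 ± 0.04 SE, limma adjusted p = 4.65e-17), with iDTR below controls in every library. Of the 2 acetyl-CoA carboxylases, Acacb was 5.03-fold and Acaca 1.12-fold lower. Acacb ranged over 233 to 359 (median 276) and 32.3 to 88.2 (median 54.8), whereas the ranges of Acaca overlapped at 94.8 to 135 (median 113) and 79.6 to 128 (median 100.5). Acss2, which activates acetate, was 4.01-fold lower, Me1, malic enzyme, 2.23-fold, Acly, ATP citrate lyase, 1.77-fold and Thrsp 4.52-fold. Soat1, which esterifies sterols, was the most reduced acyltransferase of this role, at 225 to 462 (median 345) in controls and 17.2 to 29.6 (median 21.6) in iDTR, 15.4-fold lower (log2 difference -3.87 ± 0.08 SE, limma adjusted p = 5.56e-38). The final enzymes of triglyceride synthesis differed in size of fall: Dgat1 was 3.05-fold lower without overlap, and Dgat2 1.26-fold lower with overlap, at 229 to 386 (median 329) and 143 to 329 (median 264). Gpam was 2.66-fold and Agpat2 1.40-fold lower.

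**Figure D2:**
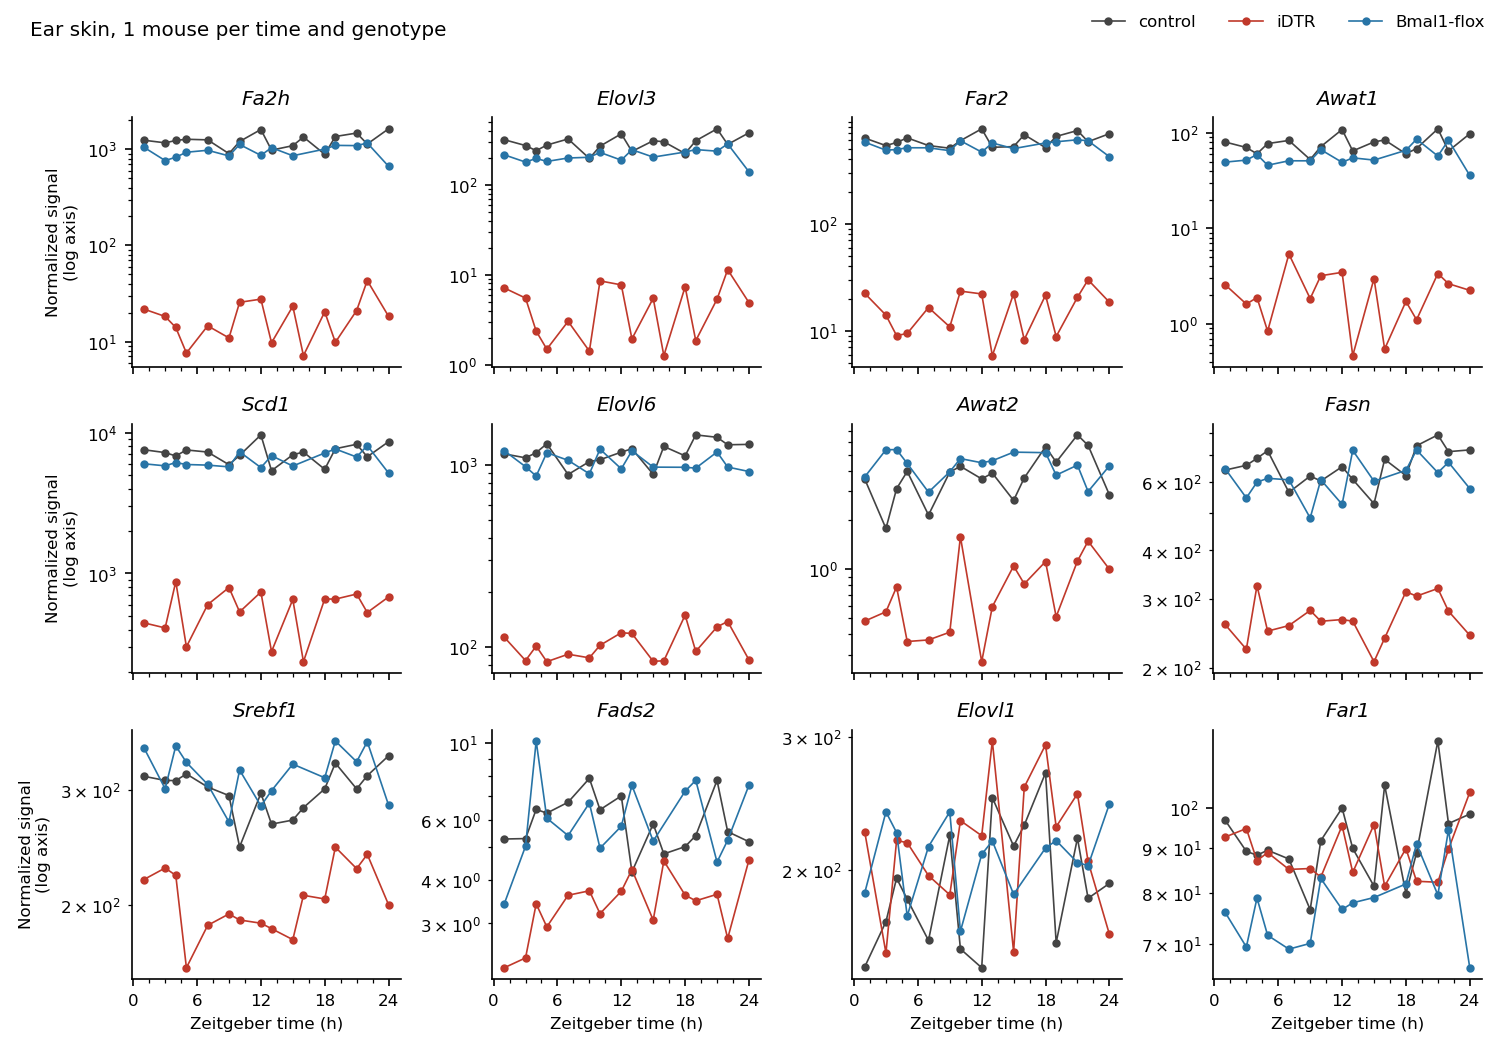
Deposited signal (log axis, own scale in each panel) of 12 members against ZT in skin, 1 mouse per point, for control, iDTR and Bmal1-flox. The iDTR points of Fa2h, Elovl3, Far2 and Awat1 lie far below the other genotypes at every ZT, while those of Elovl1 and Far1 run among them.

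**Figure D3:**
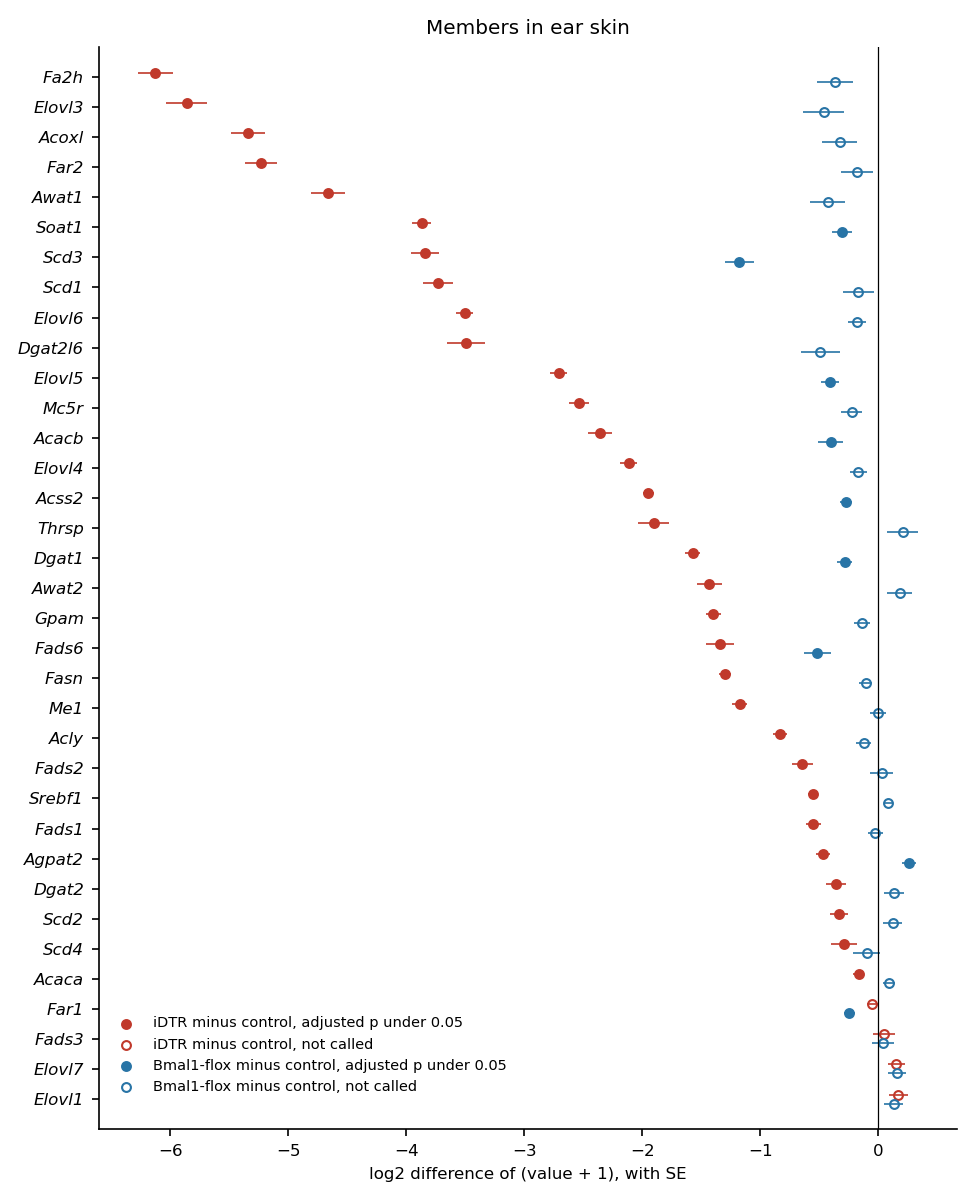
Log2 difference from control skin (x axis, ± SE) of the 35 tested members for iDTR and for Bmal1-flox, filled where limma's adjusted p was under 0.05. In iDTR 31 members are filled and all are negative, and in Bmal1-flox 9 are filled.

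Other genes of the pathway moved with the members less uniformly. Of 34 further genes (regulators, NADPH suppliers, acyl-CoA synthetases and the other enzymes of the elongation cycle), 23 were lower and 3 higher in iDTR skin. The largest falls were in Hacd2 (-2.41), a dehydratase of the elongation cycle, Mid1ip1 (-1.62), a partner of acetyl-CoA carboxylase, and Hsd17b12 (-1.39), the ketoreductase of the elongation cycle. Of 16 genes of cholesterol synthesis, 12 were lower and 3 higher, with Msmo1, a sterol demethylation enzyme, at -2.23. Markers of cell types moved in the same samples. Of 8 sebaceous markers outside the set, 6 were lower and 1, Muc1 (1.22), was higher. Cidea (-2.95), Mgst1 (-2.29) and Plin2 (-1.77) fell most, and Krt79, a sebaceous duct keratin, fell by 0.33. The values of Krt79 overlapped widely, at 449 to 759 in controls and 170 to 865 in iDTR. The summed sebaceous level was 1000.1 to 1548 in controls and 390.2 to 1079.5 in iDTR. Of 12 adipocyte markers 11 were lower, led by Adig (-1.69), Plin1 (-1.20) and Lep (-1.12), with sums of 1107 to 1684 and 503 to 1283. Of 8 epidermal keratinocyte markers 4 were higher and 1 lower, with sums of 32378 to 55436 and 42856 to 65805, and of 8 muscle markers 6 were lower. All 4 tested neutrophil markers were higher, with S100a9 at 1.34, S100a8 at 1.32 and Cxcr2 at 0.72. The part of these cell types in the fall of the members was not tested.

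Within a genotype, Fasn and Awat2 were set against the mean log2(value + 1) of the sebaceous markers and of the adipocyte markers in each library, in 24 coefficients. None passed adjustment (100000 permutations, lowest adjusted p = 0.151). The closest was Fasn with the sebaceous mean, with Pearson's r of 0.599 (permutation p = 0.0181) and Spearman's rho of 0.611 (permutation p = 0.0176) over the 15 Bmal1-flox mice. Without the 2 mice farthest from the median of that mean, r was 0.596.

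The second skin comparison set Bmal1-flox mice, meant to lose Arntl in neutrophils by the same Cre, against the controls. Arntl of whole skin was not lower, at 18.4 to 60.8 (median 46.9) in Bmal1-flox and 19.3 to 62.4 (median 38.5) in controls. Its loss within neutrophils was not measured. In Bmal1-flox skin, 8 of the 35 members were lower than in control skin and 1 was higher, while the comparison called 3.21% of all genes lower, 2.41% higher and 5.63% in either direction. The differences were small beside those of iDTR, with a median over members of -0.17, and 0 members had ranges apart from the controls (0.138% of all genes lower and 0.0753% higher). Scd3 changed most: its values were 5.69 to 15.4 (median 10.2) against 13.4 to 40.5 (median 24.2) in controls, lower at all 15 ZT shared (log2 difference -1.18 ± 0.12 SE, limma adjusted p = 3.94e-10). Fads6 was 6.05 to 18.2 (median 14.2) against 10.1 to 32.5 (median 19.5) (log2 difference -0.52 ± 0.12 SE, limma adjusted p = 0.00316). Elovl5 was 131 to 210.2 (median 165) against 146 to 286 (median 232) (log2 difference -0.41 ± 0.07 SE, limma adjusted p = 1.13e-04). In all 3 the ranges overlapped, with the Bmal1-flox values shifted downward. The other falls were in Acacb (-0.40), Soat1 (-0.31), Dgat1 (-0.29), Acss2 (-0.27) and Far1 (-0.25). Agpat2, the acyltransferase that makes phosphatidic acid, was the 1 member that rose (log2 difference 0.26 ± 0.06 SE, limma adjusted p = 0.00238).

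Fa2h, Elovl3 and Awat1, among the largest falls in iDTR, had lower means in Bmal1-flox without a call. Fa2h was 665 to 1162 (median 976) (-0.37, limma adjusted p = 0.161), Elovl3 140.2 to 287 (median 204) (-0.46, 0.118) and Awat1 35.8 to 85.6 (median 51.8) (-0.43, 0.0813). These ranges overlapped the controls. Of the other pathway genes 6 of 34 were lower and 2 higher, and of the cholesterol genes 3 of 16 were lower and 1 higher. No sebaceous or adipocyte marker was called, with sebaceous sums of 911 to 1331. The ZT 4 library with hepatocyte markers had Elovl2 at 10.9, against 0.034 to 0.44 in the other 14, and Fads2 at 10.1, against 3.42 to 7.80. Without it 10 members were called, 9 lower and 1 higher, the addition being Dgat2l6, which was also called without the mouse of ZT 19 or of ZT 22. Control mice received DT and Bmal1-flox mice did not, so genotype and DT cannot be told apart, and both skin comparisons use the same 16 control libraries. The call of Soat1 was lost without the mice of ZT 24 (limma adjusted p = 0.0572).

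Set directly against Bmal1-flox, whose mice also carry Mrp8CRE, iDTR skin had 30 of 35 members lower and 1 higher, beside 31% of all genes lower, 30.5% higher and 61.5% in either direction. Of these genotypes only iDTR was labelled as given DT, so genotype and DT cannot be told apart here either. The ranges of 24 members were apart with iDTR lower, against 3.78% of all genes, and of 0 with iDTR higher, against 4.36%. Fa2h was 52.1-fold, Elovl3 44.4-fold, Far2 32.2-fold and Scd1 11.2-fold lower in iDTR. Scd3, already lower in Bmal1-flox, was 13.3-fold lower. Far1 was the 1 member higher in iDTR, at 89.0 against 77.7 (log2 difference 0.20 ± 0.05 SE, limma adjusted p = 2.69e-04).

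Daily rhythms of the members in skin were few. A rhythm was called where a 24 h wave fitted with limma had an adjusted p under 0.05. In control skin 1 of 35 members was called (0.383% of all genes), in iDTR 4 (10.9%) and in Bmal1-flox 0 (0.326%), the last with 4 members at an unadjusted p under 0.05. Thrsp, the lipogenic regulator, peaked at 18.8 h ± 0.66 SE with a wave of 2.84-fold (limma adjusted p = 0.004) in control skin, where single mice ranged from 7.54 at ZT 5 to 36.1 at ZT 19. In iDTR skin, at a lower level, it peaked at 18.4 h ± 0.68 SE with a wave of 2.77-fold (limma adjusted p = 8.87e-04). In Bmal1-flox it was not called (limma adjusted p = 0.132), though it was without the ZT 4 library (0.0467). The other iDTR rhythms were in Scd2 (peak 21.4 h, 1.58-fold), Srebf1 (21.9 h, 1.26-fold) and Acacb (8.10 h, 1.66-fold). The calls of Srebf1 and Acacb each rested on 1 ZT, being lost without the mice of ZT 22 and of ZT 7, and without the iDTR mouse of ZT 15 the count in iDTR was 7. No member had a called difference in rhythm from controls by limma in iDTR (2 at an unadjusted p under 0.05, with Acacb nearest at an adjusted p of 0.0878, called at 0.0395 at the lowest without the iDTR mouse of ZT 10 or of ZT 3) or in Bmal1-flox (1 at an unadjusted p under 0.05).

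In bone marrow, anti-Ly6G went with small rises of several members, among them most genes of the glycerolipid and sterol ester role. Of 26 tested members, 9 were higher and 2 lower with the antibody, while the comparison called 9.95% of all genes higher, 7.16% lower and 17.1% in either direction. The median difference over members was 0.09 on the log2 scale. Dgat2, which makes triglyceride, was 23.8 to 34.1 (median 30.2) with IgG and 30.7 to 66.2 (median 37.3) with anti-Ly6G (log2 difference 0.36 ± 0.06 SE, limma adjusted p = 3.28e-05), higher at 6 of 6 ZT. Agpat2 was 32.9 to 51.2 (median 41.8) and 44.8 to 84.3 (median 51.0) (log2 difference 0.32 ± 0.05 SE, limma adjusted p = 9.22e-05). Soat1 was 64.1 to 81.1 (median 70.3) and 70.9 to 134 (median 85.7) (log2 difference 0.29 ± 0.04 SE, limma adjusted p = 6.31e-06). The antibody groups overlapped in all 3 genes, with the anti-Ly6G values shifted upward. Dgat1 rose by 0.21, so that 4 of the 5 genes of the glycerolipid and sterol ester role were higher, with Soat1 as the sterol gene. Gpam, which starts glycerolipid synthesis, fell: it was 19.1 to 29.4 (median 25.8) with IgG and 15.9 to 25.3 (median 21.0) with anti-Ly6G (log2 difference -0.26 ± 0.06 SE, limma adjusted p = 0.00121).

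The other rises were in Far2 (0.25), Fads6 (0.22), Scd2 (0.18), Elovl5 (0.17) and Acly (0.10). Fads2 was the other fall (log2 difference -0.15 ± 0.05 SE, limma adjusted p = 0.0434), and it was lost on leaving out any of 22 of the 36 libraries. Scd2 lost its call in a fit without ZT (limma adjusted p = 0.226), and Fads6 without the mice of ZT 1 (0.13) or of ZT 13 (0.122). Fasn was not called, at 54.0 to 90.2 (median 75.5) and 55.4 to 95.5 (median 81.01) (log2 difference 0.08, limma adjusted p = 0.188). Among other genes of the pathway 4 of 31 rose and 0 fell: G6pdx (0.31), Pgd (0.24) and Tkt (0.21) of the pentose phosphate pathway, and Tecr (0.11) of the elongation cycle. Of 16 cholesterol genes 7 rose and 0 fell, among them Mvd (0.30) and Fdps (0.28). Adipocyte markers had 0 of 7 called, with sums of 182 to 303 with IgG and 157 to 328 with anti-Ly6G. Neutrophil markers had 3 of 10 higher and 1 lower, with sums of 21517 to 32164 and 23365 to 43014, and skeletal muscle markers had 2 of 8 lower. The part of these cells in the members' differences was not tested.

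**Figure D4:**
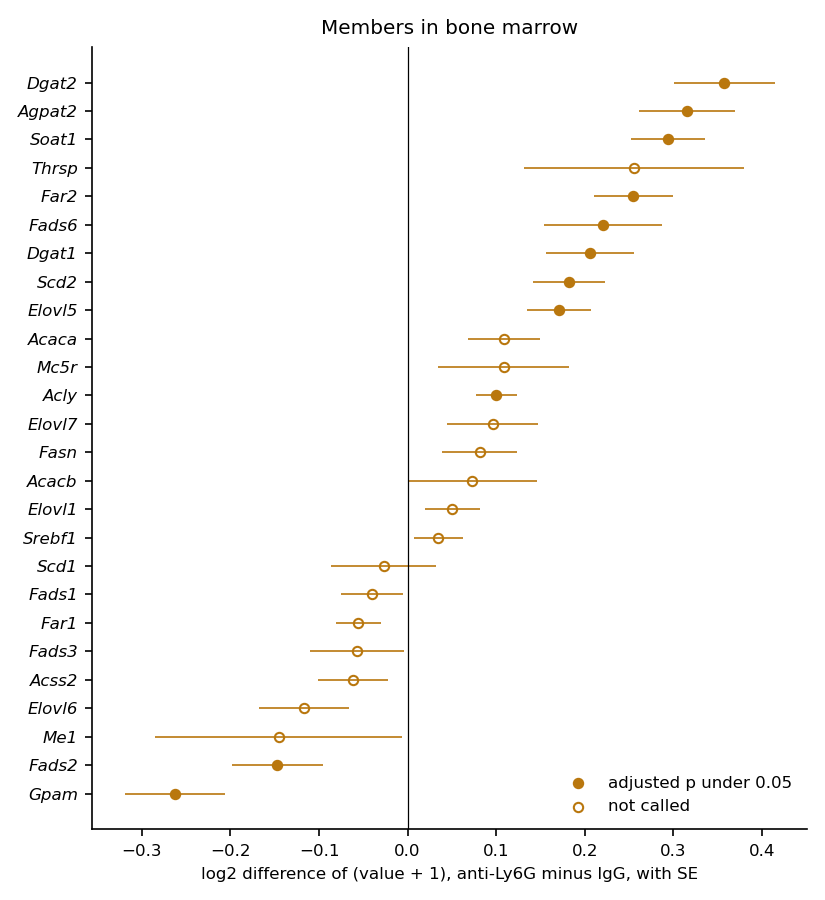
Log2 difference between anti-Ly6G and IgG (x axis, ± SE) of the 26 members tested in bone marrow, filled where limma's adjusted p was under 0.05. The filled genes Dgat2, Agpat2 and Soat1 have the largest positive differences, and Gpam and Fads2 are the filled negative ones.

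Rhythms in bone marrow were few and lay in Scd2, Scd1 and Srebf1. With IgG, 1 of 26 members was called (1.62% of all genes), and with anti-Ly6G 3 were (0.406%). Scd2 was called in both. With IgG its 3 mice were at 138, 141 and 155 at ZT 17 and at 74.4, 91.1 and 95.1 at ZT 5, and it peaked at 16.4 h ± 0.60 SE with a wave of 1.54-fold (limma adjusted p = 9.75e-04). With anti-Ly6G the mice were at 169, 172 and 174 at ZT 17 and 80.3, 84.2 and 92.1 at ZT 5, and it peaked at 16.6 h ± 0.41 SE with a wave of 1.88-fold (limma adjusted p = 1.65e-06). At each of these pairs of times the mice did not overlap. Scd1 (peak 16.2 h, limma adjusted p = 0.0358) and Srebf1 (17.4 h, 0.0258) were called with anti-Ly6G, and their calls were lost on leaving out any of 12 and of 7 of the 36 libraries. The IgG count was 0 without ZT 17 and 2 without ZT 1, and the anti-Ly6G count was 7 without ZT 1 and 1 without ZT 17, without ZT 21 or without any of 6 anti-Ly6G libraries. No member differed in rhythm between antibodies by limma, with 0 at an unadjusted p under 0.05 (0.007% of all genes were called).

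The liver had the most rhythmic members, with peaks spread through the day and night. With IgG 16 of 26 were called (42.9% of all genes), with anti-Ly6G 17 (34.7%), and 11 were called with both. The anti-Ly6G count was 11 without ZT 5. Over 50 alternatives each, 5 of the 16 IgG calls and 9 of the 17 anti-Ly6G calls were lost at least once, and leaving out 1 library alone lost 2 and 4. Elovl3 had the widest wave. With IgG its 3 mice were at 737, 806 and 831 at ZT 1 and 29.9, 37.3 and 47.1 at ZT 9, and it peaked at 22.3 h ± 0.27 SE with a wave of 19.5-fold (limma adjusted p = 3.46e-12). With anti-Ly6G it peaked at 21.5 h ± 0.27 SE with a wave of 18.6-fold (limma adjusted p = 5.87e-12), from mice at 441, 617 and 667 at ZT 21 and 28.5, 30.9 and 31.6 at ZT 9. Thrsp was next: with IgG the mice were at 1539, 1736 and 2806 at ZT 13 and 251, 256 and 389.5 at ZT 1, and it peaked at 14.5 h ± 0.50 SE with a wave of 6.37-fold (limma adjusted p = 1.43e-06). With anti-Ly6G it peaked at 14.9 h ± 0.55 SE with a wave of 5.496-fold (limma adjusted p = 7.79e-06).

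Among the lipogenic genes, Srebf1 peaked at 11.9 h with IgG and 15.4 h with anti-Ly6G, the longest interval between antibodies among the members called in both. Elovl6 peaked at 12.3 and 12.4 h, and Dgat2 at 12.6 and 11.2 h. Acss2 peaked later, at 1.58 h with IgG and 23.0 h with anti-Ly6G. Acaca was called with IgG alone (11.6 h), and Fasn (18.0 h), Acly (20.1 h), Acacb (19.7 h) and Gpam (20.6 h) with anti-Ly6G alone. Fasn had mean values of 1384 at ZT 21 and 406 at ZT 5 with anti-Ly6G, and its call was lost on leaving out any of 5 of the 36 libraries (limma adjusted p up to 0.622 over all alternatives). The call of Acly was lost without ZT 5 or without 1 anti-Ly6G mouse of ZT 21 (limma adjusted p up to 0.107). Elovl1 and Agpat2 peaked in the night: Elovl1 at 18.6 h under IgG and 18.4 h under anti-Ly6G, and Agpat2 at 18.4 and 18.0 h.

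Of the genes of polyunsaturated chains, Fads2, which acts first in making long polyunsaturated chains from dietary precursors, peaked at 8.78 h with IgG (2.57-fold) and 10.6 h with anti-Ly6G (1.85-fold). Elovl5, the member with CACGTG in its promoter window, peaked at 0.876 and 22.8 h, with waves of 3.55-fold and 2.37-fold. Elovl2 (4.38 h, 2.03-fold) and Fads3 (6.01 h, 3.20-fold) were called with IgG, and with anti-Ly6G their adjusted p was 0.184 and 0.181 by limma. Fads6 (9.83 h) was called with IgG alone, Fads1 (13.9 h) with anti-Ly6G alone, and Dgat1 with both (10.0 and 8.61 h). The call of Fads1 was lost in 11 of 50 alternatives, 4 of them without 1 library, with a limma adjusted p of up to 0.213, and the IgG call of Dgat1 in 5, of which 2 were without 1 library (up to 0.233). Scd1 was called with IgG (0.409 h, 1.82-fold), with means of 12502 at ZT 5 and 6092 at ZT 9, and its call was lost in 3 alternatives, 1 of them without 1 library (limma adjusted p up to 0.099). Scd2, scarce in liver, was called with anti-Ly6G (limma adjusted p = 0.0493), a call lost on leaving out any of 26 of the 36 libraries. A call with 1 antibody and not with the other is no difference between them: limma's test of the difference in rhythm called 0 members, with 7 at an unadjusted p under 0.05, among them Fads3 (0.00216), Elovl2 (0.00435) and Srebf1 (0.0108), none under an adjusted p of 0.397. It called 0.008% of all genes.

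In gut, 13 of 28 members were rhythmic with IgG (33.6% of all genes), 14 with anti-Ly6G (24.6%) and 12 with both. Without ZT 13 the anti-Ly6G count was 9. Among the gut libraries, 2 of anti-Ly6G stood apart: markers of male accessory glands and pancreas summed to 21960.5 in a mouse of ZT 1 and to 535 in a mouse of ZT 13, against 244 to 371 in the other 34. Without them the anti-Ly6G count was 11, the calls of Dgat1, Elovl1 and Far1 being lost (limma adjusted p of 0.0549, 0.0933 and 0.097), and the IgG count was 13. Over 51 alternatives each, 8 of the 13 IgG calls and 8 of the 14 anti-Ly6G calls were lost at least once, and leaving out 1 library lost 3 of each. Dgat2 had the lowest p. With IgG its mice were at 71.8, 76.7 and 83.4 at ZT 9 and 36.4, 39.0 and 41.7 at ZT 21, and it peaked at 10.5 h ± 0.46 SE with a wave of 2.08-fold (limma adjusted p = 6.12e-07). With anti-Ly6G it peaked at 10.4 h (2.06-fold). Dgat1 peaked at 12.0 and 11.9 h, Agpat2 at 11.9 and 12.2 h, Fa2h at 11.5 and 11.8 h and Elovl1 at 13.5 and 13.8 h, with IgG and anti-Ly6G in that order. Synthesis genes with calls under both antibodies peaked later. Fasn peaked at 16.2 and 17.2 h, with waves of 1.40-fold and 1.68-fold, and Srebf1 at 17.4 and 18.0 h. Scd2, the most abundant member per kb in gut, had means of 1919.8 at ZT 17 and 1077 at ZT 5 with IgG and of 1836 at ZT 17 and 734 at ZT 5 with anti-Ly6G, and waves of 1.57-fold and 2.06-fold. Scd1 (18.9 and 18.6 h), Fads1 (20.2 and 19.3 h) and Elovl7 (22.6 and 21.6 h) followed. The call of Scd1 was lost in 12 alternatives with IgG, 6 of them without 1 library, and in 8 with anti-Ly6G, again 6 of them without 1 library, with limma adjusted p of up to 0.24 and 0.231. The IgG call of Elovl7 was lost in 5, of which 2 were without 1 library (up to 0.183). Soat1 peaked at 0.749 and 1.54 h. Fads3 (3.87 h) was called with IgG alone, and Acaca (18.5 h) and Far1 (21.8 h) with anti-Ly6G alone. The call of Fads3 was lost in 8 alternatives, 5 of them without 1 library, and that of Far1 in 11, 6 of them without 1 library (limma adjusted p up to 0.142 and 0.16). No member differed in rhythm between antibodies by limma (1 at an unadjusted p under 0.05, Elovl7, adjusted p = 0.703).

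**Figure D5:**
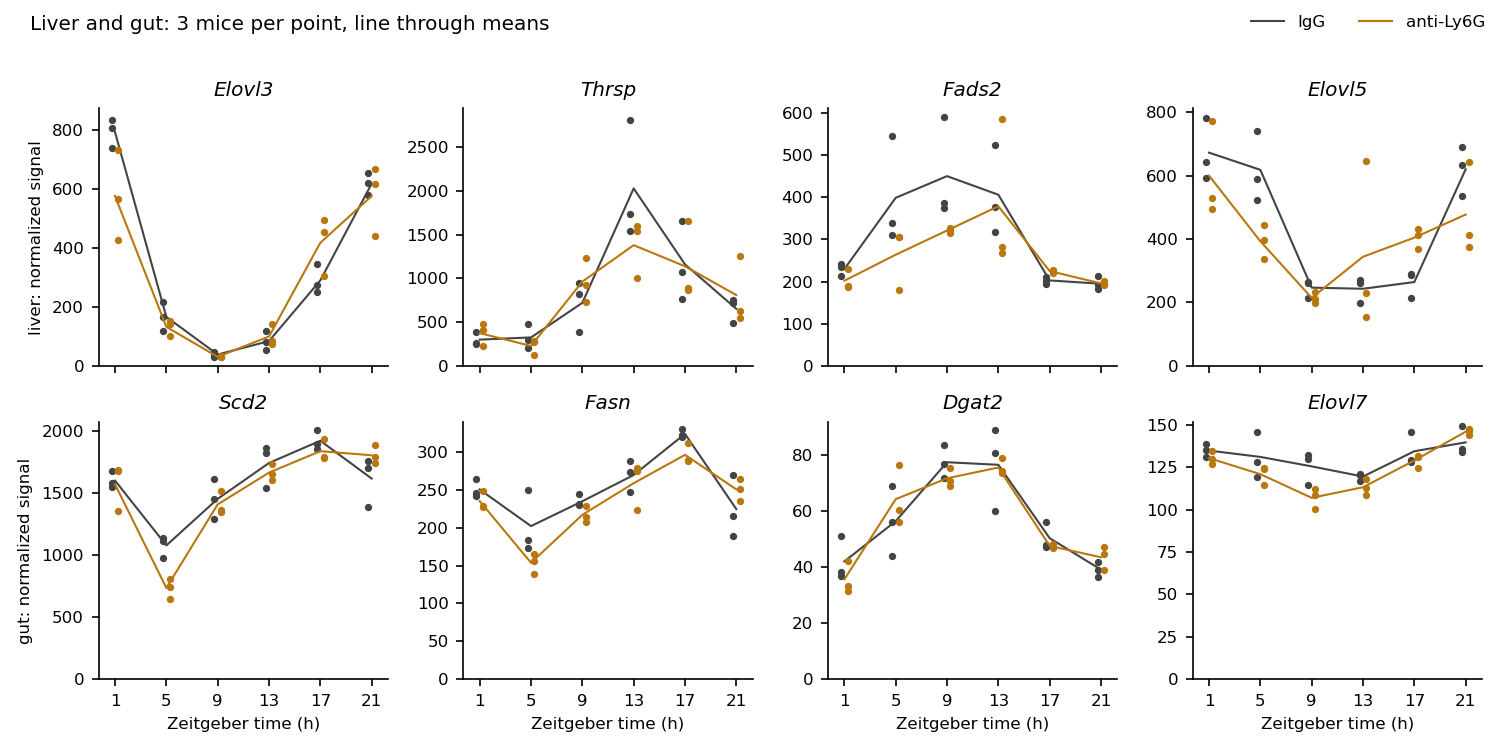
Deposited signal against ZT for Elovl3, Thrsp, Fads2 and Elovl5 in liver and Scd2, Fasn, Dgat2 and Elovl7 in gut, with 3 mice per antibody at each of 6 ZT and lines through the means of IgG and anti-Ly6G. Elovl3 in liver is low at ZT 9 in both groups and high at ZT 21 and ZT 1, and Dgat2 in gut is high at ZT 9 and ZT 13.

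The level of the members did not pass the test of antibody in gut, liver or lung. In gut 0 of 28 were called by limma (0.0132% of all genes), with 6 at an unadjusted p under 0.05, and 0 without the 2 libraries with gland or pancreas markers. The nearest was Far1, at 153 to 207 (median 184) with IgG and 139 to 208 (median 169) with anti-Ly6G (log2 difference -0.09 ± 0.03 SE, limma adjusted p = 0.18). In liver 0 of 26 were called (1.4% of all genes, 0.776% higher and 0.624% lower), with 6 at an unadjusted p under 0.05. Scd1 was 5769.7 to 16023 (median 9318) with IgG and 4905 to 14201 (median 6775) with anti-Ly6G (log2 difference -0.36 ± 0.13 SE, limma adjusted p = 0.182), with groups that overlapped widely. Me1 (-0.36, limma adjusted p = 0.202) and Soat1 (0.29, 0.182) had values lower and higher at 6 of 6 ZT. Elovl2 (-0.22, limma adjusted p = 0.286) was called only without 1 anti-Ly6G mouse (0.0486). In lung, by label, 0 of 28 were called (0%), with 2 at an unadjusted p under 0.05. The count was also 0 in a fit without the labelled ZT. The differences of Elovl1 (log2 difference 0.16 ± 0.07 SE, limma adjusted p = 0.492) and Fads2 (log2 difference 0.12 ± 0.06 SE, limma adjusted p = 0.528) came nearest.

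In lung, where alveolar type 2 cells make surfactant lipid, the spread between libraries differed by member. The highest library was 1.45-fold over the lowest for Elovl5, 10.8-fold for Dgat2 and 31.1-fold for Thrsp. Over the 36 libraries Scd1 ran from 945 to 4011 (median 2049), Fasn from 423 to 994 (median 583) and Scd2 from 559 to 1516. Adipocyte markers summed to 257 to 590 with IgG and 250 to 1611 with anti-Ly6G, as labelled, and their part in this spread was not tested. Each of Scd1 and Fasn was set against Arntl over the 36 libraries, a choice of 2 among 28 members made after the values were seen, so the coefficients are a description with no test. Libraries with more Arntl had more Scd1, with Pearson's r of 0.855 (0.847 without the 2 libraries farthest from the median of Arntl) and Spearman's rho of 0.807. Fasn had an r of 0.647 (0.654 without the 2 farthest) and a rho of 0.607. The libraries share 1 tissue, their normalization and, within a labelled ZT, a labelled collection time, and which mice came from inverted light is not given.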

How the data were processed

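RNA of 4 internal tissues and of ear skin was sequenced. Each library used 200 ng of RNA and gave single reads of 50 nt, per the labels' protocols, which also name CASAVA 1.8, cutadapt 1.7.1, RSEM 1.2.20, Kallisto 0.43.1 and Ensembl gene-build 84. The build is mm10, per the submitters' processing notes. The deposited tables, 1 per tissue, hold a linear normalized signal. They behave as RSEM expected counts plus 0.5 times a constant per library, and the normalization method and gene filter are not given in the sources used here. The totals recovered this way give the depth.

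Groups were taken from the labels. Symbols and coordinates came from GENCODE M21 by identifier. Values were used as log2(value + 1), genes with a mean of at least 1 were tested, and each tissue's genes were fitted together in limma 3.58.1 (R 4.3.3, trended variance). P-values were two-sided and adjusted by Benjamini-Hochberg over all tested genes of the tissue, and those under 0.05 were called. ZT entered the antibody fits as a factor and the skin fits as a 24 h wave. Rhythms were F tests of the cosine and sine terms of that wave, with folds from trough to peak. The fits of skin, bone marrow and liver were also run on simulated data with independent normal spread and 24 h waves. Such data hold no doubtful labels or mixed libraries, so that run does not bear on these. P-values measure the spread between mice. In the skin fits, with 1 mouse per ZT and genotype, and in all rhythm tests, that spread also holds departures from the 24 h wave.

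The 36 members and the other lists were chosen with earlier results of these data known. All members are reported, and of each other list the counts and up to 3 genes with the largest differences among those called. Some genes of these lists are not reported here by name. The genes chosen after their values were seen are Krt79 and Muc1 in skin and Tecr in bone marrow. No 2 libraries of a tissue were identical, with a highest correlation of 0.994.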

Additional observations from a re-analysis of the deposited data

How the results depend on the processing

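Of 1222 recomputed counts of members called, 1197 stayed within 1.5 times the main count and 25 did not. The 1197 include counts that were 0 in every refit, such as those of the antibody effect in gut and lung. For single called members, 89 of 1759 values under alternatives other than leaving out 1 library or 1 title number lost the call and 0 changed direction. In refits without 1 library or 1 title number, 112 of 7488 lost it. Of the 31 members called lower in iDTR skin, all but Scd4 kept the call in every alternative run, and rhythm counts moved most. In bone marrow the anti-Ly6G rhythm count of 3 became 1 with quantile normalization, 6 with ZT as a factor, 7 without ZT 1, and 1 without ZT 17 or ZT 21. The IgG count of 1 became 3 with array weights, 2 without ZT 1 and 0 without ZT 17. The anti-Ly6G rhythm counts fell to 9 in gut without ZT 13 and to 11 in liver without ZT 5. In skin the Bmal1-flox rhythm count of 0 became 1 with a pseudocount of 5 or with array weights, the iDTR differential rhythm count of 0 became 1 with array weights, and the iDTR rhythm count of 4 became 7 without the mice of ZT 15 in each genotype, an alternative added after seeing the data. The cause was not tested.

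Leaving out 1 library at a time gave 10 to 12 members for the antibody effect in bone marrow, 0 to 1 in liver, 30 to 33 for iDTR against control, 8 to 10 for Bmal1-flox against control and 31 for iDTR against Bmal1-flox. Rhythm counts were 1 to 4 in bone marrow with anti-Ly6G, 11 to 14 in gut with IgG and 13 to 15 with anti-Ly6G, 15 to 18 in liver with IgG and 14 to 17 with anti-Ly6G, 3 to 7 in iDTR skin and 0 to 1 in Bmal1-flox skin. The iDTR differential rhythm count was 0 to 1.

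Title numbers are shared between skin genotypes and mark the same ZT. Deviations of same-numbered mice correlated at -0.119 to 0.296 for control and iDTR (4 of 16 pairs over 0.1), at -0.176 to 0.245 for control and Bmal1-flox (4 of 15), and at -0.221 to 0.184 in gut (6 of 18), so the numbers were not taken to pair mice. With the replicate number as a block, iDTR against control called 32 members (31 lower and 1 higher), Bmal1-flox against control 9, iDTR against Bmal1-flox 31 and gut 0. At this depth, members with values near 1 unit, such as Scd4, rest on few reads.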
